A study of Gallus gallus with 21 samples.

Results

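The genes described here are the axon guidance ligands and receptors of the chicken feather follicle: the semaphorins with the plexins and neuropilins, the netrins with UNC5 and neogenin, the slits with the robos, the ephrins with the Eph receptors, and DRAXIN and ISLR2. The choice was made with earlier results of these data known. It took every row of the deposited tables whose symbol belongs to one of these families or is DRAXIN or ISLR2. This gave 52 of 13815 genes in the table of experiment 1 and 55 of 23789 in that of experiment 2, with EPHA8, ROBO2 and UNC5D in the second table only. Family members without a row were not analysed here. RNA was sequenced from contour feather follicles of untreated male white leghorn chickens aged 1 year. Experiment 1 held 12 libraries, 3 each of the dermal papilla, the dermal sheath, the peripheral pulp and the central pulp of follicles in early growth. Experiment 2 held 9 libraries: pulp in early growth, in late growth and near rest, with 2 libraries each, and the apical dermal papilla of resting follicles, with 3. All groups share breed, sex, age and the absence of treatment, and the labels do not say whether replicates were separate birds or whether birds were pooled.

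Guidance molecules were named for steering growing axons. A ligand that is secreted or held on a neighbouring cell binds a receptor on the responding cell, whose cytoskeleton then turns toward or away from the source. Secreted class 3 semaphorins act through neuropilin and plexin receptors, netrins through neogenin and UNC5 receptors, slits through robos, and ephrins through Eph receptor kinases on touching cells. The same families also serve outside the nervous system, in vessels, epithelia and connective tissue. In the feather follicle, the papilla is the mesenchymal signalling centre at the base, the sheath surrounds it, and the pulp is the vascular mesenchyme that fills the growing shaft and is resorbed toward rest.

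Values are TPM, a length-corrected share of all transcripts in a library, so levels of different genes can be set side by side within a table. TPM keeps no depth, so the sequencing depth is unknown and the precision of weakly expressed genes cannot be given. The number of genes at or above 1 TPM ran from 12569 to 13451 per library. Group means are given ± SD, over 3 libraries in experiment 1 and in the resting apical papilla and over 2 libraries in each pulp stage of experiment 2. Differences were tested with limma on log2(TPM + 1) over all genes of a table. A gene is called where its adjusted p (Benjamini-Hochberg) was under 0.05. Fold changes on this scale understate the change of weakly expressed genes, and separate birds are not stated for the replicates, so a p-value covers the variation among the libraries alone. In bulk tissue, fewer cells of a type and less RNA per cell cannot be told apart. All 6 mesenchymal markers examined (such as COL1A1 and PDGFRA) were detected in every group, with sums from 6415 to 31244 TPM per library. Other cell types were also present. The summed TPM of 6 keratinocyte markers was 5054 to 7489.7 in the sheath against 203 to 371 in the papilla, 352 to 804 in peripheral pulp and 74.5 to 115 in central pulp. The 2 near resting libraries stood far apart, with keratinocyte sums of 8948 in replicate 1 and 1641 in replicate 2. Most of the larger guidance gene differences of that stage are given with and without each of them, and the remaining ones with both libraries only. Genes outside the guidance families were not checked in this way.

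In experiment 1 the guidance genes were abundant in every dermal part, and their summed level was higher in pulp. It lay between 1556 and 1652 TPM per library in the papilla, 1322 and 1407 in the sheath, 3484 and 3555 in peripheral pulp and 2561 and 2996 in central pulp. DRAXIN and ISLR2 were large parts of the pulp sums. Their means were 737 and 604 TPM in peripheral and 432 and 455 in central pulp. In the papilla they were 2.46 and 3.43 TPM, and in the sheath 3.01 and 0.791. Of the 52 genes, 46 had a mean of at least 10 TPM in at least 1 part, and 13 reached 100 TPM. The highest group mean was in peripheral pulp for 18 genes, in the papilla for 13, in central pulp for 11 and in the sheath for 10. All 52 passed the filter on low values, and 43 of them (82.7%) differed between the 4 parts by limma's F test at an adjusted p under 0.05, where 76.3% of all tested genes did. The share among guidance genes was thus close to that among genes at large.

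**Figure D1:**
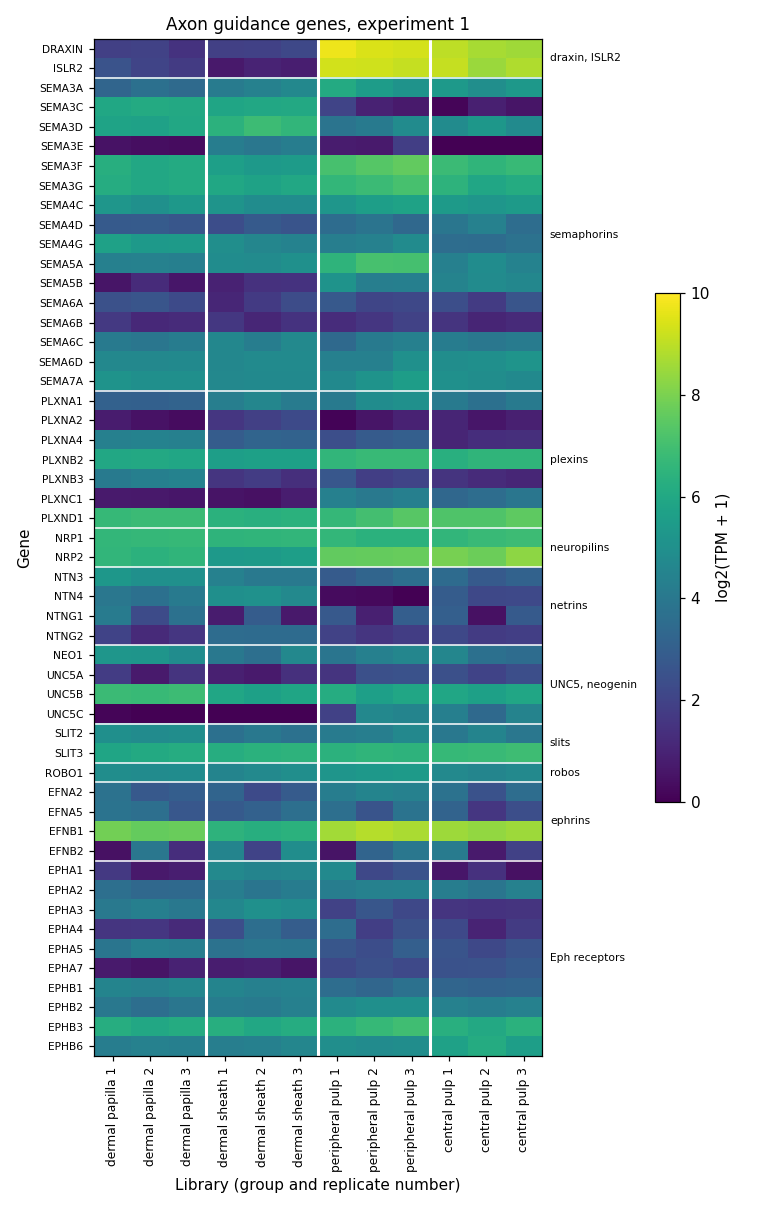
Levels of the 52 axon guidance genes (rows, by family) in the 12 libraries of experiment 1 (columns), as log2(TPM + 1) from dark (0) to yellow (10). DRAXIN and ISLR2 are bright in the 6 pulp libraries and dark in the papilla and sheath, whereas SEMA3C shows the opposite.

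On the log2(TPM + 1) scale, DRAXIN and ISLR2 set the pulp apart from the papilla and sheath more than any other guidance gene. That scale understates the difference of UNC5C, which stood far below 1 TPM outside the pulp. DRAXIN encodes a secreted repulsive guidance protein described in chick spinal cord and forebrain, and ISLR2 a transmembrane protein with leucine-rich repeats that in mouse acts with neurotrophin receptors. DRAXIN stood at 2.74, 2.87 and 1.78 TPM in the papilla, 2.77, 2.83 and 3.45 in the sheath, 862, 692 and 658 in peripheral pulp and 506, 407 and 382 in central pulp. ISLR2 stood at 4.87, 3.13 and 2.29 TPM in the papilla, 0.606, 0.977 and 0.790 in the sheath, 641, 614 and 555 in peripheral pulp and 553, 364 and 447 in central pulp. Every pulp library lay above every papilla and sheath library for both genes, by a wide gap. Pulp was higher by a log2 fold change of 7.24 ± 0.11 SE, adjusted p = 2.6e-12, for DRAXIN and of 7.55 ± 0.14 SE, adjusted p = 5.8e-12, for ISLR2. By this measure 25 of 52 guidance genes were higher in pulp (40.3% of all tested genes were), 14 were lower (24.9%) and 13 were not called, and 65.2% of all tested genes were called in either direction. The median log2 fold change was 0.17 over the guidance genes and 0.13 over all tested genes.

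Among the semaphorins, 7 of 16 were higher in pulp and 4 lower. SEMA5B, a transmembrane semaphorin with thrombospondin repeats, stood at 0.465, 1.34 and 0.536 TPM in the papilla, 0.930, 1.69 and 1.79 in the sheath, 33.9, 18.1 and 18.8 in peripheral pulp and 21.0, 27.3 and 23.5 in central pulp. It was at least at 18.1 TPM in every pulp library and below 2 TPM outside the pulp (log2 fold change 3.55 ± 0.19 SE, adjusted p = 1.5e-08). SEMA3C, a secreted semaphorin that acts through neuropilins, ran the other way, at 60.7, 68.0 and 65.4 TPM in the papilla, 58.0, 63.3 and 63.9 in the sheath, 3.15, 0.938 and 0.642 in peripheral pulp and 0.0891, 0.859 and 0.465 in central pulp. The papilla and the sheath held it at similar levels and the pulp nearly lacked it. SEMA3C met the filter on low values only with the papilla and sheath libraries. Its lower call is therefore no support and is given without a fold change. SEMA3D, also secreted, was lower in pulp without being lost there, with 54.9, 51.1 and 62.5 TPM in the papilla, 85.0, 113 and 93.8 in the sheath, 13.6, 16.1 and 27.2 in peripheral pulp and 27.6, 38.6 and 26.9 in central pulp. The sheath libraries were the highest and all pulp libraries lay below all others (log2 fold change -1.60 ± 0.16 SE, adjusted p = 3.2e-06). SEMA3A, the prototype repellent of the class, was higher in pulp, going from 10.1 ± 1.65 TPM in the papilla and 20.4 ± 3.82 in the sheath to 49.3 ± 17.3 in peripheral and 36.1 ± 5.83 in central pulp (log2 fold change 1.46 ± 0.16 SE, adjusted p = 8.1e-06). SEMA3F and SEMA3G, ligands of neuropilin-2, were also higher in pulp, by 1.20 and 0.52 on the log2 scale. SEMA3E was listed at 0 in all 3 central pulp libraries, so its call in pulp is counted here without a fold change.

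The semaphorin receptors divided in the same comparison, 4 of 7 plexins being higher in pulp and 3 lower. PLXNC1, the receptor of SEMA7A, stood at 18.0 ± 2.13 TPM in peripheral and 11.4 ± 2.54 in central pulp but at 0.596 ± 0.0716 in the papilla and 0.515 ± 0.196 in the sheath. PLXNC1 passed the filter on low values through the pulp libraries alone, so its higher call is no support and is given without a fold change. Its ligand gene SEMA7A was near the same level in all parts, with group means from 25.4 to 35.5 TPM, and was not called. NRP2, which binds SEMA3F and SEMA3G, stood at 94.1, 86.1 and 91.6 TPM in the papilla, 41.6, 43.2 and 47.1 in the sheath, 191, 196 and 202 in peripheral pulp and 248, 217 and 310.1 in central pulp. Its pulp libraries all lay above the rest (log2 fold change 1.81 ± 0.08 SE, adjusted p = 2.1e-09). NRP1, which binds SEMA3A and also serves in vessels, had group means between 87.6 and 106 TPM and was not called, with a log2 fold change of -0.01 ± 0.06 SE, adjusted p = 0.95. PLXNA4 and PLXNB3 were lower in pulp, with log2 fold changes of -1.75 and -1.17.

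Of the netrins, 3 of 4 were lower in pulp and none was higher. NTN4, a netrin of basement membranes related to laminins, stood at 14.7, 11.9 and 16.2 TPM in the papilla, 30.8, 32.5 and 24.8 in the sheath, 0.234, 0.203 and 0 in peripheral pulp and 6.54, 3.51 and 3.59 in central pulp. The sheath was at the top and peripheral pulp at the bottom. Pulp did not overlap the papilla and sheath, as in 32.9% of all tested genes (log2 fold change of pulp -3.11 ± 0.16 SE, adjusted p = 8.4e-09). NTN3, another secreted netrin, fell from 33.7 ± 3.64 TPM in the papilla to 8.78 ± 2.39 in peripheral and 8.04 ± 2.00 in central pulp (log2 fold change of pulp against papilla and sheath -1.44 ± 0.15 SE, adjusted p = 3.4e-06). Among the receptors, UNC5C, which mediates repulsion by netrin, was nearly confined to pulp in this experiment, at 0.0883, 0.0151 and 0.00690 TPM in the papilla, 0.0110, 0.0184 and 0.0116 in the sheath, 2.87, 24.6 and 21.6 in peripheral pulp and 19.1, 9.66 and 21.0 in central pulp. Peripheral pulp replicate 1 held far less than the other 5 pulp libraries and still exceeded every library outside the pulp. UNC5C passed the filter on low values through the pulp libraries alone, so its higher call is no support and is given without a fold change. UNC5B, a member of the same family known from vessels, was lower in pulp, with a log2 fold change of -0.43, and NEO1, the neogenin receptor, was not called (-0.50 ± 0.22 SE, adjusted p = 0.065). SLIT3 was higher in pulp by 0.43 and ROBO1 by 0.20, though under median-of-ratios scaling ROBO1 was at 0.08 with an adjusted p of 0.38. SLIT2 was not called (-0.09 ± 0.12 SE, adjusted p = 0.53).

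EFNB1, a transmembrane ephrin, was among the most abundant guidance genes, at 232, 195 and 209 TPM in the papilla, 86.8, 76.6 and 83.7 in the sheath, 388, 477 and 419.9 in peripheral pulp and 371, 332 and 374 in central pulp. Every pulp library lay above every papilla library, and every papilla library above the sheath (log2 fold change of pulp 1.56 ± 0.07 SE, adjusted p = 2.1e-09). Of its EphB receptors, EPHB3, the most abundant Eph gene here, had group means from 69.3 to 103 TPM and EPHB6, whose kinase domain is inactive, from 19.0 to 56.4 TPM. Both were called higher in pulp, by 0.32 and 1.00, though the call of EPHB3 was lost after median-of-ratios scaling, with an adjusted p of 0.067. EPHA3, a receptor of A-class ephrins, stood at 15.4, 19.1 and 15.1 TPM in the papilla, 23.8, 31.8 and 28.2 in the sheath, 2.97, 5.37 and 3.53 in peripheral pulp and 1.88, 1.76 and 1.87 in central pulp. Pulp libraries were all below 6 TPM and the others all above 15 TPM (log2 fold change -2.59 ± 0.14 SE, adjusted p = 1.1e-08). EPHA5 and EPHB1 were also lower in pulp, with log2 fold changes of -1.44 and -1.09. EPHA7 was called higher, but it passed the filter on low values through the pulp libraries alone. Its call is therefore no support and is given without a fold change. In all, 5 of 10 Eph receptors were higher, 3 were lower and 2 were not called. Leaving out each library in turn, 37 of the 39 calls of pulp against papilla and sheath held, the exceptions being PLXNA2 and ROBO1. Under median-of-ratios scaling, where the median over all genes went from 0.13 to 0.02, the split of called guidance genes was 23 higher and 16 lower.

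Other cell types also differed between pulp and the papilla and sheath. The summed TPM of 9 Schwann cell and nerve markers was 64.5 to 90.4 in the papilla and 88.3 to 119.9 in the sheath but 8.55 to 21.7 in peripheral and 17.7 to 24.4 in central pulp. DRAXIN and ISLR2 were thus high in the libraries with the lower nerve marker sums. The sum of 5 leukocyte markers was 657 to 758 TPM in peripheral and 846 to 978 in central pulp, against 138 to 155 in the papilla and 228 to 239 in the sheath. Smooth muscle markers (5 of 5 detected) summed to 23023 to 24531 TPM in the papilla and 11846 to 15623 in the sheath, and to 134 to 198 and 757 to 1119.8 in peripheral and central pulp. The part of these cells in the differences above was not tested.

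**Figure D2:**
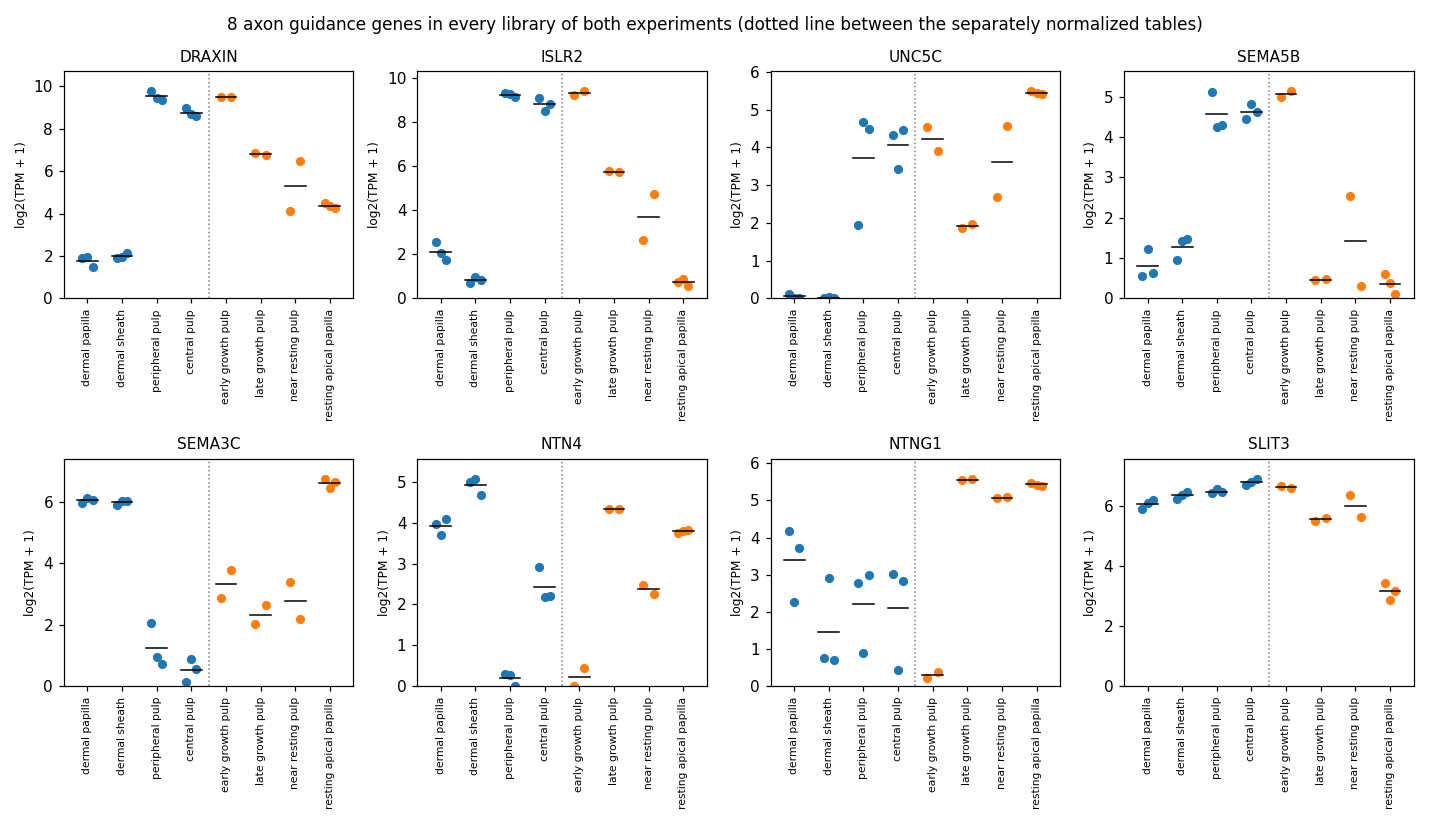
Levels of 8 axon guidance genes in each library, as log2(TPM + 1), in the 4 parts of experiment 1 (blue) and the 4 groups of experiment 2 (orange); points are libraries and bars the mean of the plotted values. UNC5C lies near 0 in the papilla and sheath of experiment 1 and between 41.6 and 43.7 TPM in the resting apical papilla of experiment 2, whose table was normalized separately.

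The papilla and the sheath differed in both ligands and receptors. Of 52 guidance genes, 13 were higher in the papilla (21.7% of all tested genes were), 14 were higher in the sheath (16%) and 25 were not called, with 37.7% of all tested genes called. The median log2 fold change was 0.07 against 0.06 over all genes. Among the ligands, SEMA3E, which binds plexin-D1 directly in mouse, stood at 0.399, 0.306 and 0.245 TPM in the papilla and 17.9, 14.6 and 17.8 in the sheath. The sheath was its only part above 3 TPM in experiment 1. SEMA3E met the filter on low values only with the sheath libraries, so its call is no support and is given without a fold change. Its receptor gene PLXND1 was present in both, at 109 ± 4.67 and 81.7 ± 2.42 TPM. SEMA3A and SEMA3D were higher in the sheath too, with log2 fold changes of papilla minus sheath of -0.94 and -0.78. NTNG2, a membrane-anchored netrin-G, stood at 3.08, 1.26 and 2.01 TPM in the papilla and 10.4, 10.2 and 10.3 in the sheath, without overlap, as in 53.5% of all tested genes (log2 fold change -1.91 ± 0.23 SE, adjusted p = 7.3e-05). SLIT2, the secreted ligand of the robos, ran the other way, at 30.9, 27.1 and 28.7 TPM in the papilla and 12.0, 14.9 and 12.4 in the sheath, again without overlap (log2 fold change 1.09 ± 0.17 SE, adjusted p = 5.6e-04). EFNB1 stood higher in the papilla, by a log2 fold change of 1.35 ± 0.09 SE, adjusted p = 1.9e-06. Between these parts DRAXIN was not called (log2 fold change -0.22 ± 0.15 SE, adjusted p = 0.28), whereas ISLR2, low in both, stood higher in the papilla (log2 fold change 1.27 ± 0.20 SE, adjusted p = 4.6e-04).

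Among the receptors, the papilla was marked by PLXNB3, at 15.8, 18.8 and 20.5 TPM against 1.92, 2.45 and 1.57 in the sheath (log2 fold change 2.70 ± 0.24 SE, adjusted p = 8.7e-06). PLXNA4, a co-receptor of neuropilin for SEMA3A, stood at 19.6, 20.5 and 19.5 TPM in the papilla and 6.49, 8.35 and 7.89 in the sheath (log2 fold change 1.29 ± 0.19 SE, adjusted p = 2.9e-04). PLXNA1 ran the other way, at 7.53, 7.33 and 8.00 TPM in the papilla and 18.5, 22.8 and 16.7 in the sheath (log2 fold change -1.23 ± 0.23 SE, adjusted p = 0.0013). None of these plexins overlapped between the parts. PLXNA2, another A-class plexin, was also higher in the sheath, at 2.84 ± 0.865 TPM against 0.454 ± 0.231 in the papilla. It met the filter on low values only with the sheath libraries, so its call is no support and is given without a fold change. NRP2, UNC5B and NEO1 were higher in the papilla by close to 1 on the log2 scale (1.03, 0.99 and 1.02). No Eph receptor was called higher in the papilla, and 5 of 10 were higher in the sheath. EPHA1, a receptor of epithelia in mammals, stood at 2.12, 0.617 and 0.787 TPM in the papilla and 25.1, 21.7 and 23.0 in the sheath (log2 fold change -3.54 ± 0.56 SE, adjusted p = 5.6e-04). The keratinocyte marker sum was also higher in all sheath libraries, with all 6 markers detected in both parts, and its part in the EPHA1 difference was not tested. Leaving out each library in turn, 20 of the 27 calls held. The calls of EPHA4, EPHB2, NEO1, PLXND1, SEMA3D, SEMA5A and SLIT3 did not.

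**Figure D3:**
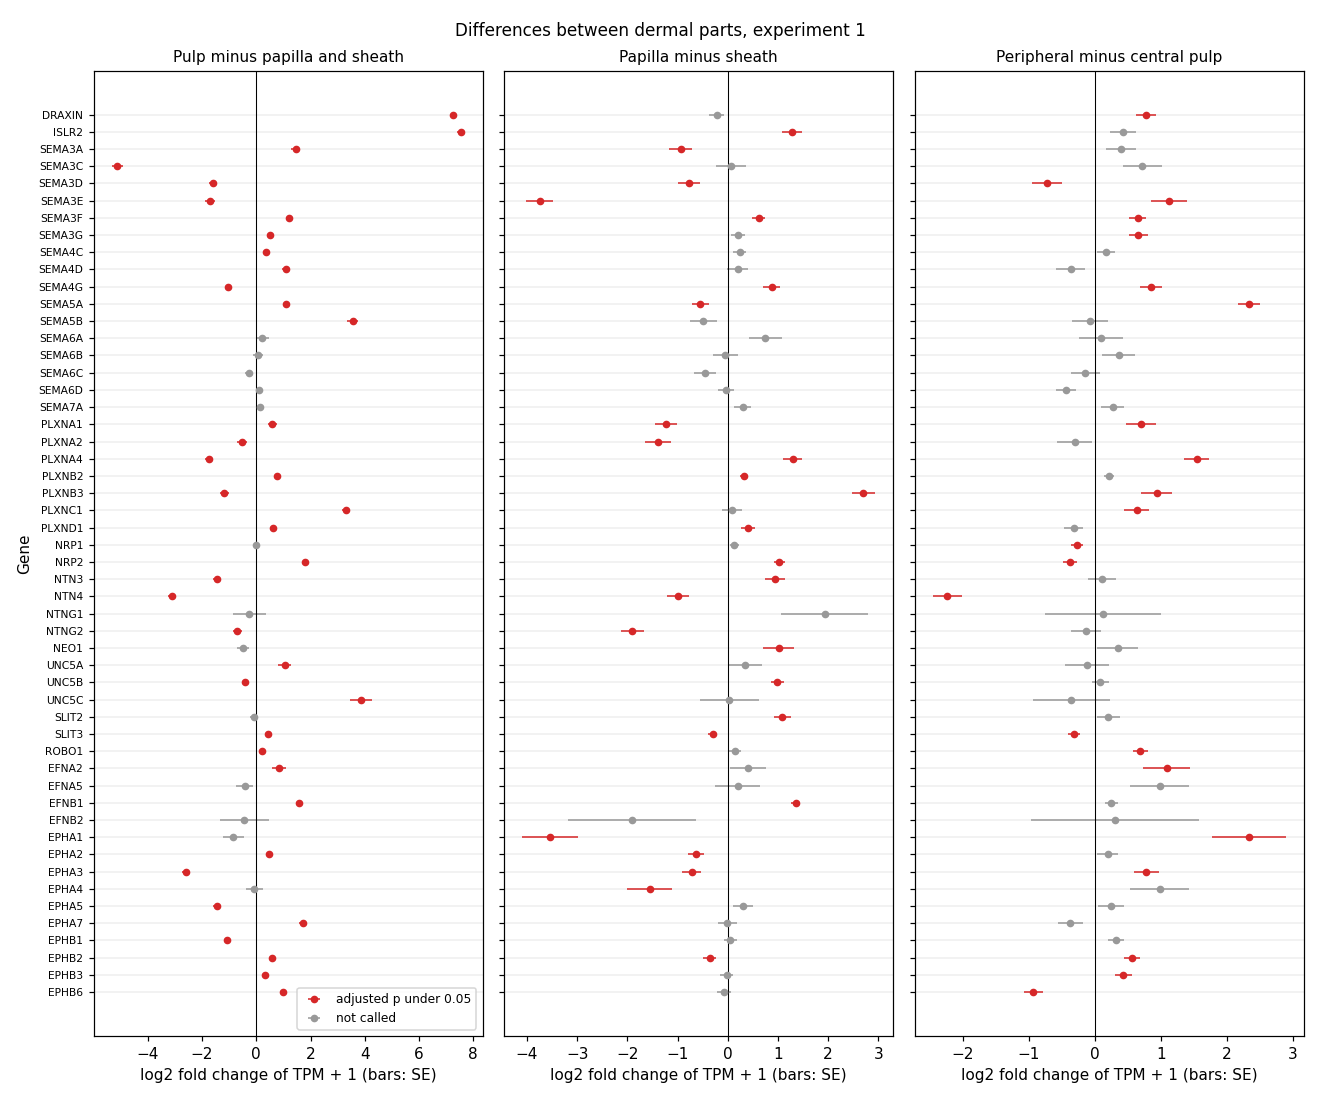
Log2 fold changes of TPM + 1 with SE bars for the 52 axon guidance genes in the 3 comparisons of experiment 1, red where the adjusted p was under 0.05. Pulp differed from papilla and sheath by over 7 for DRAXIN and ISLR2, and the differences between peripheral and central pulp all stayed under 3.

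Within the pulp, guidance genes leaned toward the periphery. Of 52 genes, 16 were higher in peripheral pulp (15.6% of all tested genes were), 6 were higher in central pulp (9.51%) and 30 were not called, with 25.2% of all tested genes called. The count higher in central pulp fell to 2 without central replicate 3 and to 3 without central replicate 2 or peripheral replicate 1 or 2. Their median log2 fold change was 0.26 against 0.08 over all tested genes, and median-of-ratios scaling gave a split of 12 and 8. DRAXIN was higher in the periphery without overlap, as 39.5% of all tested genes were apart in either direction (log2 fold change 0.77 ± 0.15 SE, adjusted p = 0.0039), whereas ISLR2, whose lowest peripheral library at 555 TPM lay just above the highest central one at 553, was not called (0.43 ± 0.20 SE, adjusted p = 0.14). SEMA5A, a transmembrane semaphorin, stood at 89.7, 134 and 133 TPM in peripheral and 19.3, 28.3 and 20.6 in central pulp. The periphery exceeded the other 3 parts in every library (log2 fold change of peripheral minus central pulp 2.33 ± 0.16 SE, adjusted p = 3.6e-06). SEMA4G stood at 18.4, 19.8 and 27.1 TPM in peripheral and 11.0, 10.7 and 12.8 in central pulp (log2 fold change 0.85 ± 0.17 SE, adjusted p = 0.0039), and SEMA3F and SEMA3G were higher in the periphery by 0.65 and 0.66. SEMA3E was called higher there, at 0.701, 0.655 and 2.63 TPM, against a central pulp listed at 0. SEMA3D alone among the semaphorins was called lower (-0.72), as was NTN4 among the netrins (-2.24 ± 0.22 SE, adjusted p = 3.9e-05).

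EPHA1 was the most uneven of the genes called between the pulp parts, at 25.5, 3.53 and 4.86 TPM in peripheral and 0.512, 1.70 and 0.349 in central pulp. Peripheral replicate 1 was far above its 2 companions, and the parts did not overlap (log2 fold change 2.33 ± 0.56 SE, adjusted p = 0.011). Without that library the log2 fold change was 1.55 with an adjusted p of 0.0079. The same library had a keratinocyte marker sum of 804 TPM, against 352 and 424 in the other peripheral libraries and 74.5 to 115 in central pulp. EFNA2, an ephrin with a lipid anchor, stood at 17.8, 21.7 and 19.9 TPM in peripheral and 12.7, 4.74 and 10.9 in central pulp. The libraries did not overlap and its call (log2 fold change 1.08 ± 0.35 SE, adjusted p = 0.044) was lost on leaving out any one peripheral library, central replicate 2 or 3, papilla replicate 3 or sheath replicate 3, with log2 fold changes from 0.70 to 1.33 over all leave-outs and adjusted p-values up to 0.16. Plexins A1, A4, B3 and C1 were also higher in the periphery, by 0.70, 1.54, 0.94 and 0.63, though the call of PLXNA1 was lost in 9 leave-outs. After median-of-ratios scaling the calls of PLXNA1, PLXNC1, EFNA2 and EPHB3 were lost. Those of PLXNC1 and EFNA2 were also lost with a pseudocount of 0.1.

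Besides NTN4 and SEMA3D, the genes higher in central pulp were EPHB6, NRP1, NRP2 and SLIT3. EPHB6 stood at 30.0, 27.2 and 28.8 TPM in peripheral and 51.8, 70.4 and 47.1 in central pulp, without overlap (log2 fold change -0.93 ± 0.14 SE, adjusted p = 6.6e-04). For NRP2, whose values are given above, the difference was -0.38 ± 0.11 SE, adjusted p = 0.027, and it was no longer called without peripheral replicate 1 or 2 or central replicate 3 (-0.36 with an adjusted p of 0.057, -0.38 with an adjusted p of 0.067 and -0.24 with an adjusted p of 0.085). SLIT3 stood at 85.1, 92.9 and 86.3 TPM in peripheral and 103, 109.9 and 117 in central pulp (log2 fold change -0.32 ± 0.09 SE, adjusted p = 0.026). That call was lost without peripheral replicate 1 or 3 or central replicate 2 or 3, at adjusted p-values up to 0.10. Of the 22 calls within the pulp, 13 held on leaving out each library in turn. Those of EPHB3, NRP1, PLXNA1, PLXNB3, PLXNC1 and SEMA3D were lost in at least 1 leave-out besides EFNA2, NRP2 and SLIT3. Melanocyte markers (4 of 5 detected) summed to 67.7 to 186 TPM in peripheral and 0.464 to 6.32 in central pulp, and keratinocyte markers were also higher in the periphery; their part in these differences was not tested.

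A few guidance genes varied within groups more than between them. EFNB2, the other B-class ephrin, stood at 0.348, 14.5 and 1.46 TPM in the papilla, 21.9, 3.07 and 28.5 in the sheath, 0.436, 8.27 and 14.7 in peripheral pulp and 16.7, 0.641 and 2.79 in central pulp. NTNG1, a membrane-anchored netrin-G, stood at 17.0, 3.82 and 12.1 TPM in the papilla, 0.697, 6.46 and 0.622 in the sheath, 5.85, 0.847 and 7.03 in peripheral pulp and 7.10, 0.364 and 6.10 in central pulp. Neither was called in any of the 3 comparisons. SEMA6C, SEMA6D and SEMA7A had group means between 15.1 and 35.5 TPM in all parts. SEMA4C was called higher in pulp (log2 fold change 0.37 ± 0.10 SE, adjusted p = 0.0053), as was EPHA2 (log2 fold change 0.46 ± 0.11 SE, adjusted p = 0.0034), which was also lower in the papilla than in the sheath (log2 fold change -0.64 ± 0.16 SE, adjusted p = 0.0083).

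Experiment 2 followed the pulp through the cycle and set it beside the resting papilla. The summed level of the guidance genes lay between 3436 and 3732 TPM per library in early growth, 2614 and 2659 in late growth, 1987 and 2013 near rest and 1875 and 1886 in the resting apical papilla. From early to late growth the means of DRAXIN and ISLR2, both large parts of the sum, went from 712 and 630 to 111 and 52.9 TPM. Over the same step the sum of the receptors alone rose, from 982 and 991 to 1143 and 1135 TPM, so the fall was not shared by the guidance genes as a whole. Of the 55 genes, 46 reached a group mean of 10 TPM and 11 a mean of 100 TPM. The highest mean was in late growth pulp for 19 genes, in early growth pulp for 17, in the resting papilla for 13 and in near resting pulp for 6. EPHA8 and SEMA6B did not pass the filter on low values, and SEMA3E passed it through the early growth libraries alone. Of the 53 tested genes, 50 (94.3%) differed between the 4 groups by limma's F test, where 85% of all tested genes did. The comparisons that follow share groups, so they are not independent of each other.

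**Figure D4:**
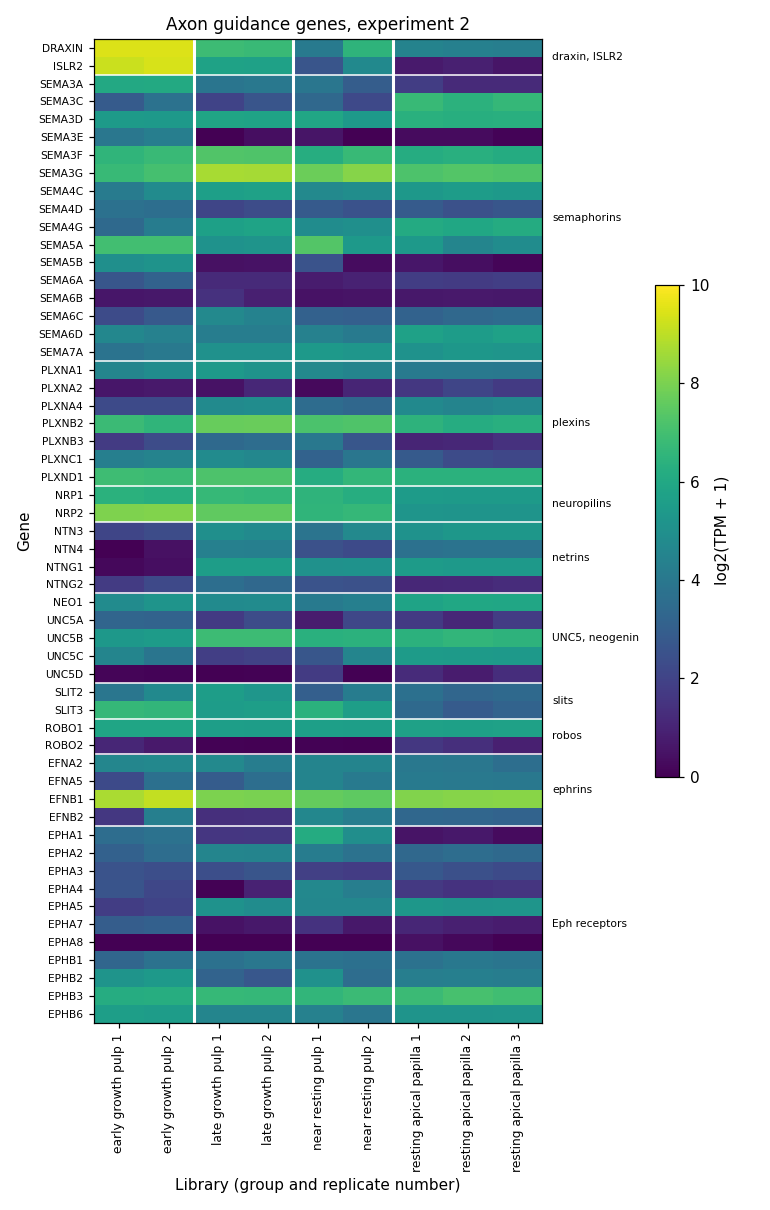
Levels of the 55 axon guidance genes (rows, by family) in the 9 libraries of experiment 2 (columns), as log2(TPM + 1) from dark (0) to yellow (10). DRAXIN and ISLR2 darken from early growth to the resting papilla, NTNG1 and NTN4 brighten from early to late growth, and SEMA3C and UNC5C are brightest in the resting papilla.

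From early to late growth the pulp changed in most guidance genes. Of 53, 20 were higher in late growth (22.4% of all tested genes were), 19 were lower (30.8%) and 14 were not called, with 53.3% of all tested genes called. The median log2 fold change was 0.05 over the guidance genes and -0.11 over all tested genes. All 4 netrins were higher. NTNG1 stood at 0.166 and 0.292 TPM in early and 45.8 and 46.6 in late growth (log2 fold change 5.26 ± 0.11 SE, adjusted p = 2.3e-07). NTN4 stood at 0 and 0.363 TPM in early and 19.4 and 19.1 in late growth (log2 fold change 4.11 ± 0.20 SE, adjusted p = 3.3e-06). NTN3 stood at 3.21 and 3.95 and then 30.9 and 26.4 TPM (log2 fold change 2.70 ± 0.25 SE, adjusted p = 8.1e-05). None of these netrins overlapped between the stages (78.7% of all tested genes did not), and replicates within a stage lay close together. SEMA3G, the most abundant semaphorin in late growth, rose from 119 ± 17.4 to 409.8 ± 10.9 TPM (log2 fold change 1.79 ± 0.15 SE, adjusted p = 4.3e-05), and SEMA4C, SEMA4G, SEMA6C and SEMA7A were higher by 1.18, 1.93, 2.05 and 1.13.

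DRAXIN, ISLR2 and several semaphorins fell over the same step. DRAXIN stood at 715 and 708 TPM in early and 113 and 108 in late growth (log2 fold change -2.68 ± 0.60 SE, adjusted p = 0.0067). ISLR2 stood at 591 and 670.0 TPM in early and 53.3 and 52.4 in late growth (log2 fold change -3.55 ± 0.54 SE, adjusted p = 0.001). Neither gene overlapped between the stages, and the late growth values lay far below those of early growth. SEMA5B was nearly lost, from 30.8 and 34.1 to 0.367 and 0.393 TPM. It met the filter on low values only with the early growth libraries, so its lower call is no support and is given without a fold change. SEMA3E went from 14.7 and 18.3 to 0 and 0.305 TPM. It passed the filter on low values through the early growth libraries alone, so its lower call, 1 of the 19, is no support and is given without a fold change. Lower log2 levels in late growth were also called for SEMA3A (-2.10), SEMA5A (-1.83), SLIT3 (-1.08) and EFNB1 (-0.90). Of the 15 tested semaphorins, 6 were higher, 6 were lower and 3 were not called.

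The receptors changed as well. No plexin was called lower in late growth and 5 of 7 were higher, with PLXNA4 going from 3.74 ± 0.0154 to 27.5 ± 1.26 TPM (log2 fold change 2.59 ± 0.14 SE, adjusted p = 5.0e-06) and PLXNB2 from 102 ± 13.5 to 207 ± 5.35 TPM (log2 fold change 1.02 ± 0.12 SE, adjusted p = 2.4e-04). The log2 fold change was -0.54 for NRP2 and 0.33 for NRP1, both called. The UNC5 receptors moved apart: UNC5B rose from 41.7 ± 3.91 to 114 ± 0.0232 TPM (log2 fold change 1.43 ± 0.10 SE, adjusted p = 1.7e-05), and UNC5C fell from 22.2 and 13.9 to 2.61 and 2.89 TPM (log2 fold change -2.31 ± 0.51 SE, adjusted p = 0.0063). Among the Eph receptors EPHA5 stood at 2.51 and 3.05 TPM in early and 33.4 and 27.8 in late growth (log2 fold change 3.06 ± 0.13 SE, adjusted p = 2.1e-06). EPHA1, EPHA4, EPHA7, EPHB2 and EPHB6 were lower, with log2 fold changes of -2.07, -1.84, -2.45, -2.36 and -1.02. Leaving out each library in turn, 29 of the 39 calls held. Those of EPHB3, NRP1, PLXNA1, PLXNB3, PLXND1, ROBO1, ROBO2, SEMA3F and SEMA5A were lost in at least 1 leave-out. SEMA3E was not tested without an early growth library. The keratinocyte marker sum was 1004 to 1277 TPM in early and 251 to 253 in late growth, and that of 6 endothelial markers 321 to 330.4 and 689.5 to 719.5; their part in these differences was not tested.

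Near rest, the guidance genes called higher than in late growth were EPHA1, EPHA4, EPHB2, EFNB2 and UNC5C. EPHB2 had a log2 fold change of 1.38. Its call was lost with no filter, with a replicate number block and without any single early growth, late growth or resting papilla library. Of 10 Eph receptors, 3 were higher, 1 was lower and 6 were not called, and of 4 ephrins 1 was higher and 1 lower. Of 53 genes, 5 were higher near rest (8.77% of all tested genes were), 20 were lower (22.3%) and 28 were not called, with 31.1% of all tested genes called. The median log2 fold change was -0.35 against -0.16 over all tested genes. After median-of-ratios scaling the split was 6 higher and 9 lower, so most of the lower calls depended on the scaling. EPHA4 stood at 0.0342 and 0.964 TPM in late growth and 24.6 and 18.6 near rest (log2 fold change 3.97 ± 0.33 SE, adjusted p = 1.4e-04). EPHA1 stood at 1.97 and 2.04 and 70.0 and 29.9 TPM (log2 fold change 3.96 ± 0.36 SE, adjusted p = 2.1e-04). EFNB2 stood at 1.57 and 1.58 and 23.4 and 18.0 TPM (log2 fold change 3.07 ± 0.70 SE, adjusted p = 0.013). None of the 3 overlapped between the stages (60.4% of all tested genes did not), and the near resting values were the highest of experiment 2 for EPHA1 and EPHA4. Without near resting replicate 1 the log2 fold changes of EPHA4, EPHA1 and EFNB2 were 3.78 with an adjusted p of 7.7e-04, 3.36 with an adjusted p of 1.2e-04 and 2.88 with an adjusted p of 0.048; without replicate 2 they were 4.16 with an adjusted p of 3.3e-04, 4.56 with an adjusted p of 2.1e-05 and 3.25 with an adjusted p of 0.031. The call of EFNB2 was lost without late growth replicate 1 or 2 (3.06 with an adjusted p of 0.063 and 3.07 with an adjusted p of 0.06).

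Markers of other cell types moved over the same step. All 6 keratinocyte markers were called higher near rest, with a median log2 fold change of 3.77 and sums of 251 to 253 TPM in late growth and 1641 to 8948 near rest. All 6 tested endothelial markers and all 5 smooth muscle markers were called lower, with endothelial sums of 689.5 to 719.5 TPM in late growth against 299 to 406 near rest and smooth muscle sums of 572 to 583 TPM against 84.8 to 119. The near resting libraries differed from each other in several guidance genes, along with the keratinocyte sum of 8948 TPM in replicate 1 and 1641 in replicate 2 (6 of 6 markers detected in both). SEMA5A stood at 161 and 41.7 TPM in replicates 1 and 2, EPHB2 at 32.2 and 11.1 and SEMA5B at 4.86 and 0.244, all higher in replicate 1. DRAXIN stood at 16.5 and 89.1 TPM, ISLR2 at 5.23 and 25.5 and UNC5C at 5.40 and 22.6, all lower in replicate 1. EPHA4 and NTNG1 were close to equal in both, at 24.6 and 18.6 TPM and 32.2 and 33.4 TPM. The part of these cell types in the differences was not tested.

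**Figure D5:**
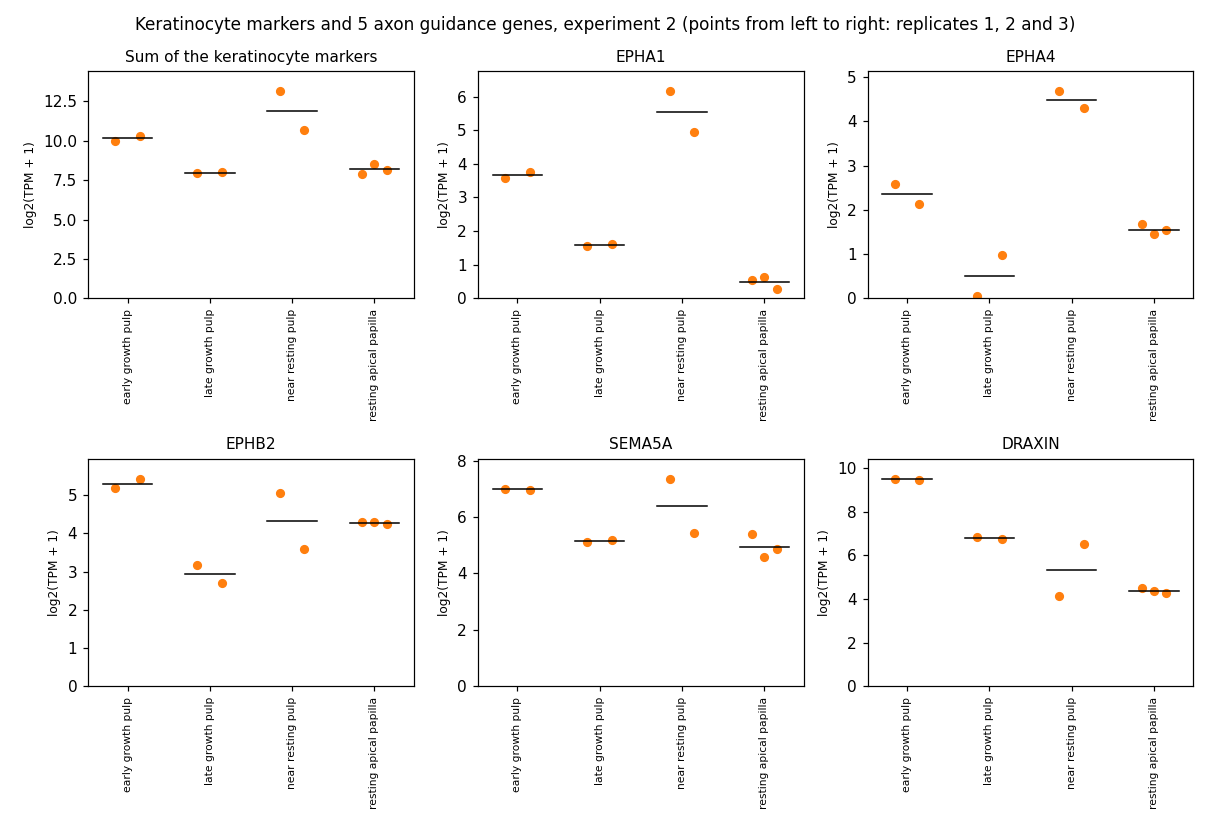
Summed keratinocyte markers (first panel) and 5 axon guidance genes in the libraries of experiment 2, as log2(TPM + 1), with points in replicate order and bars at the mean of the plotted values. Near resting replicate 1, the left point of its pair, is the higher one for the marker sum, EPHA1, EPHB2 and SEMA5A and the lower one for DRAXIN, at 16.5 against 89.1 TPM.

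The call of DRAXIN near rest changed with the library left out. Against late growth, at 113 and 108 TPM, it was lower near rest in both libraries but was not called (log2 fold change -1.49 ± 0.60 SE, adjusted p = 0.10). Without near resting replicate 1 the log2 fold change was -0.31 with an adjusted p of 0.043, and without replicate 2 it was -2.67 with an adjusted p of 9.5e-06, each resting on the assumption that the lone library varies like the other groups. ISLR2 was called lower, at 5.23 and 25.5 TPM near rest (log2 fold change -2.07 ± 0.54 SE, adjusted p = 0.023), with -1.02 with an adjusted p of 0.0032 without near resting replicate 1 and -3.11 with an adjusted p of 2.5e-05 without replicate 2. That call was lost without late growth replicate 1 or 2 (-2.06 with an adjusted p of 0.095 and -2.08 with an adjusted p of 0.089) and after median-of-ratios scaling (-1.89 with an adjusted p of 0.051). Against early growth, both genes were lower near rest, with a log2 fold change of -4.16 ± 0.60 SE, adjusted p = 6.7e-04, for DRAXIN and of -5.62 ± 0.54 SE, adjusted p = 8.5e-05, for ISLR2. Both were also called without either near resting library. The log2 fold changes against early growth were then -2.98 with an adjusted p of 2.8e-06 and -5.34 with an adjusted p of 3.6e-07 for DRAXIN, and -4.57 with an adjusted p of 3.2e-06 and -6.66 with an adjusted p of 1.1e-06 for ISLR2, without replicates 1 and 2 in that order.

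UNC5C was called higher near rest than in late growth (log2 fold change 1.71 ± 0.51 SE, adjusted p = 0.038), and that call did not hold in every leave-out. It was 2.65 with an adjusted p of 4.4e-04 without near resting replicate 1 and 0.77 with an adjusted p of 0.047 without replicate 2. It was lost without either late growth library (1.66 with an adjusted p of 0.14 and 1.77 with an adjusted p of 0.12) or any one resting papilla library, at adjusted p-values of 0.062 to 0.064. NTN4 stood at 4.59 and 3.81 TPM near rest, below late growth without overlap (log2 fold change -1.96 ± 0.20 SE, adjusted p = 3.3e-04). SEMA6C stood at 25.0 and 20.9 TPM in late growth and 7.61 and 7.17 near rest (log2 fold change -1.51 ± 0.22 SE, adjusted p = 0.0017). Without near resting replicates 1 and 2 in turn, the log2 fold change was -2.07 and -1.86 for NTN4 and -1.55 and -1.47 for SEMA6C, all called. SLIT2 stood at 46.1 and 36.8 and 7.20 and 17.2 TPM (log2 fold change -1.79 ± 0.40 SE, adjusted p = 0.012), a call lost without late growth replicate 1 (-1.63 with an adjusted p of 0.071). It was -1.21 with an adjusted p of 0.033 without near resting replicate 1 and -2.36 with an adjusted p of 0.0022 without replicate 2. Plexins followed the lower side, with 5 of 7 called lower near rest and none higher, PLXNB2 going from 207 ± 5.35 to 147 ± 7.96 TPM; that of PLXNB2 and of PLXNC1 was not called after median-of-ratios scaling. Of the 25 calls, 8 held on leaving out each library in turn. The count of calls was 8 without late growth replicate 1 and 12 without replicate 2, and 28 and 31 without near resting replicates 1 and 2.

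From early growth to near rest, 16 of 53 guidance genes were higher (18.7% of all tested genes were), 18 were lower (37.3%) and 19 were not called, with 55.9% of all tested genes called. Their median log2 fold change was -0.12 against -0.23 over all tested genes, and median-of-ratios scaling gave 22 higher and 14 lower. NTNG1, EPHA5 and NTN3 stayed above early growth, by 4.78, 2.71 and 2.09 on the log2 scale without overlap (73.1% of all tested genes did not overlap), and the log2 fold change of EPHA4 was 2.13 ± 0.33 SE, adjusted p = 9.1e-04. Without near resting replicates 1 and 2 in turn these were 4.81 and 4.76 for NTNG1, 2.73 and 2.70 for EPHA5, 2.51 and 1.68 for NTN3 and 1.94 and 2.32 for EPHA4, all called. SEMA5B, at 4.86 and 0.244 TPM near rest, is counted as lower without a fold change, since it met the filter on low values only with the early growth libraries. SEMA3E, at 0.473 and 0 TPM near rest, is counted as lower, again having passed the filter through early growth alone. ROBO1, called lower at -0.26, changed sign under median-of-ratios scaling, at 0.04 with an adjusted p of 0.71. Of the 34 calls, 25 held on leaving out each library in turn.

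The resting apical papilla differed from near resting pulp in ligands of several families. Of 53 genes, 18 were higher in the papilla (40.9% of all tested genes were), 16 were lower (21.6%) and 19 were not called, with 62.5% of all tested genes called. The median log2 fold change was -0.02 against 0.25 over all tested genes, and median-of-ratios scaling, under which all genes had a median of 0.00, gave a split of 14 higher and 19 lower. SEMA3C stood at 9.35 and 3.56 TPM near rest and 105, 85.4 and 98.8 in the papilla. The papilla was far above the pulp of all 3 stages, as in experiment 1 (log2 fold change 3.82 ± 0.39 SE, adjusted p = 9.3e-05). It was 4.41 with an adjusted p of 8.7e-05, without near resting replicate 1 and 3.23 with an adjusted p of 3.6e-04, without replicate 2. NTN4 stood at 12.4, 13.0 and 13.2 TPM in the papilla, above both near resting libraries without overlap, as 74.6% of all tested genes were in one direction or the other (log2 fold change 1.42 ± 0.18 SE, adjusted p = 2.8e-04). SLIT3 ran the other way, at 82.0 and 48.1 TPM near rest and 9.76, 6.37 and 8.06 in the papilla, its lowest group (log2 fold change -2.83 ± 0.23 SE, adjusted p = 2.8e-05). Without near resting replicates 1 and 2 in turn, the values were 1.53 and 1.31 for NTN4 and -2.45 and -3.21 for SLIT3, all called. SEMA6D and SEMA4G were higher in the papilla by 1.39 and 1.16, and SEMA3A was lower, at -2.04.

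Among the receptors, UNC5C reached its highest level of experiment 2 in the resting papilla, at 43.7, 42.8 and 41.6 TPM against 5.40 and 22.6 near rest (log2 fold change 1.83 ± 0.47 SE, adjusted p = 0.01). It was 0.89 with an adjusted p of 0.012 without near resting replicate 1 and 2.77 with an adjusted p of 8.5e-05 without replicate 2. NEO1, a netrin receptor that also binds the repulsive guidance molecules, stood at 16.5 and 19.0 TPM near rest and 55.3, 61.5 and 59.1 in the papilla (log2 fold change 1.67 ± 0.12 SE, adjusted p = 1.7e-05), with 1.57 and 1.77 without near resting replicates 1 and 2 in turn. Both neuropilins were lower in the papilla, NRP2 at 36.3, 35.3 and 35.0 TPM against 91.9 and 99.1 (log2 fold change -1.40 ± 0.07 SE, adjusted p = 2.2e-06) and NRP1 with a log2 fold change of -0.91. EPHA1 was at its lowest in the papilla, at 0.456, 0.569 and 0.224 TPM, and EPHA4, at 2.19, 1.73 and 1.90 TPM there, was lower still in late growth. The log2 fold change against near resting pulp was -5.06 ± 0.32 SE, adjusted p = 9.3e-06, for EPHA1 and -2.93 ± 0.30 SE, adjusted p = 9.2e-05, for EPHA4. Without near resting replicate 1 these were -4.46 with an adjusted p of 8.1e-06 and -2.74 with an adjusted p of 7.3e-04, and without replicate 2 they were -5.66 with an adjusted p of 3.0e-06 and -3.12 with an adjusted p of 4.3e-04. The keratinocyte marker sum was 239 to 360.0 TPM in the papilla, below both near resting libraries. The mesenchymal sum was also lower, at 6415 to 7223 TPM against 19194 to 23976, with 5 of 6 markers called lower, and the sum of 3 erythroid markers was 2955 to 6085 TPM against 198 to 479.8. The part of these cell types in the differences was not tested.

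DRAXIN was not called between the resting papilla, at 21.3, 19.7 and 18.2 TPM, and near resting pulp (log2 fold change -0.94 ± 0.55 SE, adjusted p = 0.17). The papilla values lay between the 2 near resting libraries. Without near resting replicate 1 the log2 fold change was -2.12 with an adjusted p of 5.1e-06, and without replicate 2 it turned to 0.24 with an adjusted p of 0.056. ISLR2 was below 1 TPM in all papilla libraries, at 0.653, 0.858 and 0.485, and was called lower (log2 fold change -2.95 ± 0.50 SE, adjusted p = 0.0013). For ISLR2 it was -4.0 with an adjusted p of 3.1e-06, without near resting replicate 1 and -1.91 with an adjusted p of 6.3e-05, without replicate 2. Of the 34 calls of papilla against near resting pulp, 27 held on leaving out each library in turn, and those of EPHA2, EPHA3, NTNG1, PLXNA2, PLXNC1, SEMA4C and SEMA5A did not.

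The guidance genes not yet described had group means of at most 18.7 TPM. SEMA4D, a transmembrane semaphorin also known from lymphocytes, had group means from 5.07 TPM in the sheath to 15.0 in central pulp and was higher in pulp (log2 fold change 1.09 ± 0.15 SE, adjusted p = 5.8e-05). It was lower in late than in early growth (log2 fold change -1.48 ± 0.21 SE, adjusted p = 6.7e-04). SEMA6A, whose receptors are A-class plexins, was called in no comparison of experiment 1 and was lower in late growth (log2 fold change -1.72 ± 0.21 SE, adjusted p = 3.1e-04), from 6.63 ± 1.74 to 1.28 ± 0.0353 TPM. UNC5A stayed under 9 TPM in every group mean and was higher in pulp than in papilla and sheath (log2 fold change 1.05 ± 0.24 SE, adjusted p = 0.002). It was also lower near rest than in early growth (log2 fold change -1.77 ± 0.45 SE, adjusted p = 0.011). EFNA5, an ephrin with a lipid anchor, was called once, higher near rest than in early growth (log2 fold change 1.30 ± 0.44 SE, adjusted p = 0.036). Without early growth replicate 1 its log2 fold change was 0.57 with an adjusted p of 0.18, and the call was also lost with no filter, with the replicate block and in 5 other leave-outs. ROBO2 and UNC5D, which have values in experiment 2, stayed below 3 TPM in every library there. ROBO2 stood at 1.08 and 0.607 TPM in early growth, 0.0380 and 0.0165 in late growth, 0.0387 and 0.00990 near rest and 2.08, 1.52 and 0.816 in the resting papilla. It met the filter on low values only with the resting papilla libraries, so its higher call there than near rest is no support and is given without a fold change. UNC5D stood at 2.36 and 0.0221 TPM near rest and was not called in any comparison. SEMA6B stayed below 3 TPM in every library of both tables. EPHA8 was listed at 0 in all pulp libraries of experiment 2 and stood at 0.350, 0.171 and 0 TPM in the resting papilla.

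Proteins known to bind guidance receptors or ligands at the membrane differed between the same groups. Of the 14 listed, 10 were tested in experiment 1, of which 5 were higher (40.3% of all tested genes were) and 3 lower (24.9%) in pulp than in papilla and sheath. LINGO1, a co-receptor for myelin inhibitors, was at 389 ± 23.3 TPM in the papilla, 98.0 ± 12.2 in the sheath, 57.1 ± 1.65 in peripheral and 22.2 ± 3.17 in central pulp (log2 fold change of pulp -2.42 ± 0.08 SE, adjusted p = 2.0e-10). The adhesion molecules NCAM1 and CHL1 were also lower in pulp (-3.66 and -3.24). CNTN2, an axonal adhesion molecule, was at 17.4 ± 2.21 and 12.9 ± 8.94 TPM in peripheral and central pulp and at 0.141 ± 0.123 in the papilla. It met the filter on low values only with the pulp libraries, so its higher call is no support and is given without a fold change. FLRT3, which binds UNC5 receptors, was higher in pulp by 1.69 ± 0.12 SE, adjusted p = 2.4e-07. In experiment 2, 11 were tested, and 5 were lower (30.8% of all tested genes were) and 1 higher (22.4%) in late than in early growth. CNTN1 went from 124 ± 23.5 to 0.208 ± 0.174 TPM (log2 fold change -6.69 ± 0.22 SE, adjusted p = 6.3e-07), and CNTN2, at 12.3 ± 1.02 TPM in early growth, was listed at 0 in late growth and near rest. GPC1, a glypican that binds slits, was the one gene higher, by 0.98 ± 0.08 SE, adjusted p = 5.1e-05. Near rest, NCAM1 was higher than in late growth (2.31 ± 0.61 SE, adjusted p = 0.023) and LINGO1 lower (-1.30 ± 0.15 SE, adjusted p = 6.0e-04), the others not being called.

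The cytoplasmic effectors of guidance receptors were called in both directions. Of 40 listed, 33 were tested in experiment 1, with 15 higher (40.3% of all tested genes were) and 12 lower (24.9%) in pulp and a median log2 fold change of 0.09, against 0.13 over all tested genes. MICAL2, a relative of the oxidase that acts on actin below plexins, was lower in pulp, with a log2 fold change of -3.39 ± 0.14 SE, adjusted p = 1.4e-09. DPYSL3, a collapsin response mediator, was at 288 ± 17.1 TPM in the papilla and 44.1 ± 7.08 in central pulp (log2 fold change of pulp -2.67 ± 0.15 SE, adjusted p = 2.7e-08). NGEF, an exchange factor that acts below EphA receptors, was higher in pulp (1.77 ± 0.21 SE, adjusted p = 1.4e-05) and in the sheath, where papilla minus sheath was -2.70. In experiment 2, 34 were tested, with 8 higher (22.4% of all tested genes were) and 15 lower (30.8%) in late than in early growth. NGEF went from 28.1 ± 9.71 TPM in early growth to 0.558 ± 0.554 in late growth and 15.7 ± 8.87 near rest. The log2 fold change was -4.23 ± 0.43 SE, adjusted p = 1.2e-04, over the first step and 3.36 ± 0.43 SE, adjusted p = 9.5e-04, over the second, without overlap in either step.

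Neurotrophic factors and their receptors, which act on the same axons as guidance cues, were mostly lower in pulp. Of 16 listed, 11 were tested in experiment 1, with 8 lower (24.9% of all tested genes were) and 2 higher (40.3%) in pulp and a median log2 fold change of -1.85, against 0.13 over all tested genes. NGFR, the shared neurotrophin receptor, was lower in pulp (-3.33 ± 0.23 SE, adjusted p = 1.1e-07), as were the GDNF family co-receptors GFRA4 (-2.80 ± 0.28 SE, adjusted p = 3.1e-06) and GFRA1 (-2.74 ± 0.16 SE, adjusted p = 3.0e-08). NTRK3, the receptor of neurotrophin-3, was at 90.9 ± 2.93 TPM in the papilla and 40.9 ± 2.47 in the sheath and lower in pulp, with a log2 fold change of -1.95 ± 0.24 SE, adjusted p = 2.7e-05. GDNF was listed at 0 in the papilla and sheath and was at 3.60 ± 1.66 and 2.56 ± 0.597 TPM in peripheral and central pulp. NGFR is also among the Schwann cell markers whose sum was lower in pulp. In experiment 2, 9 were tested, with 5 lower (30.8% of all tested genes were) and 2 higher (22.4%) in late than in early growth. GFRA2 fell from 7.68 ± 2.68 to 0.0809 ± 0.0128 TPM (-2.97 ± 0.25 SE, adjusted p = 4.7e-05) and NGFR rose from 1.15 ± 0.569 to 14.7 ± 1.22 TPM (2.89 ± 0.41 SE, adjusted p = 6.6e-04). In the resting papilla, NTRK2, the receptor of brain-derived neurotrophic factor, was higher than near rest (3.47 ± 0.29 SE, adjusted p = 3.5e-05), as was NTRK3 (2.68 ± 0.23 SE, adjusted p = 3.9e-05).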

How the data were processed

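Expression of axon guidance genes was read from 2 deposited tables of TPM values, 1 per experiment (12 and 9 libraries), which the authors made from total RNA prepared with TRIzol and a TruSeq kit, per the labels' protocols. The submitters' processing notes list Cuffdiff (2.2.1.3), Cufflinks (2.2.1.2) and TopHat2 (2.1.1) with no roles. The genome build is not given in the sources used here. TPM is a share of each library and keeps no depth, so a rise of a few abundant genes lowers the others, and an exact 0 is given as listed at 0. The tables were normalized separately, so tests stayed within a table. The table of experiment 1 listed no gene with a mean under 1.00 TPM over its libraries. Genes with at least 1 TPM in at least 3 (experiment 1) or 2 (experiment 2) libraries, 13804 and 14915 genes, were taken to log2 after adding a pseudocount of 1. A group-means model with trended, robust variances was fitted in limma (3.58.1, R 4.3.3), two-sided, with Benjamini-Hochberg adjustment over all of them. The fit was tested on simulated data. Values per library are given for DRAXIN and ISLR2 and, per comparison, for up to 4 called genes in each direction with the largest change, at least 10 TPM in the higher group and no overlap. The members and the lists of partner, intracellular and neurotrophic genes were chosen with earlier results of these data known. Alternatives were a pseudocount of 0.1, no filter, median-of-ratios scaling, plain variances without trend or robustness, a block for the replicate number, and leaving out each library. Replicates differed by an SD of 0.32 to 0.64 in log2 TPM, and no pair was near-identical.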

Additional observations from a re-analysis of the deposited data

How the results depend on the processing

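Counts of called guidance genes moved by over 1.5 times in 1 comparison, near resting against late growth pulp. There the count was 25, with 15 after median-of-ratios scaling and 8 to 31 over the leave-outs (8 without late growth replicate 1 and 12 without replicate 2). The other counts stayed within 1.5 times of their values under a pseudocount of 0.1, no filter, the scaling, no trend or robust variance and the leave-outs, with ranges over the leave-outs of 37 to 40 for pulp against papilla and sheath, 23 to 28 for papilla against sheath, 15 to 21 for peripheral against central pulp, 31 to 43 for late against early growth, 25 to 36 for near rest against early growth and 31 to 37 for the resting papilla against near resting pulp. Median-of-ratios scaling moved the median of all genes by over 0.1 on the log2 scale in 4 comparisons: pulp (0.13 to 0.02), near rest against late (-0.16 to 0) and early growth (-0.23 to 0.02), and resting papilla (0.25 to 0.00). The share of higher calls over all genes then went from 61.8% to 51.2%, 28.2% to 50.3%, 33.4% to 51.5% and 65.4% to 49.4%, and from 62.2% to 43.0% between the pulp parts. Among DRAXIN, ISLR2 and the called genes with the largest changes, the value that turned its direction in a leave-out was that of DRAXIN. This was in the resting papilla against near resting pulp, not called at -0.94 and ranging from -2.12 to 0.24.

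Whether the replicate numbers pair the libraries was not settled. Same-numbered libraries deviated together with correlations from -0.08 to 0.14 in experiment 1 and -0.04 to 0.11 in experiment 2. Differently numbered libraries gave -0.12 to 0.11 and -0.11 to 0.04. In experiment 1, 7 of 12 libraries correlated best with their own number, out of 3 numbers, and in experiment 2, 3 of 9 did. The 2 libraries of a pulp stage in experiment 2 deviate by equal and opposite amounts, so their correlations cannot show or exclude pairing. With the replicate number as a block, the counts were 39, 27 and 22 in the comparisons of experiment 1 and 38, 20, 28 and 32 in those of experiment 2. With 2 libraries per pulp stage and unknown depth, small differences near rest could not be measured firmly.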

Other observations

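The growing papilla of experiment 1 and the resting apical papilla of experiment 2 come from separately normalized tables, so their levels are set side by side without a test, as means ± SD over 3 libraries each. UNC5C was at 0.0368 ± 0.0448 TPM in the growing papilla and 42.7 ± 1.06 in the resting apical papilla. NTNG1 was at 11.0 ± 6.66 and 42.1 ± 1.14 TPM and EPHA5 at 17.0 ± 2.88 and 36.7 ± 1.17. SLIT3 was at 65.6 ± 6.73 and 8.06 ± 1.70 TPM and PLXNB3 at 18.4 ± 2.39 and 1.32 ± 0.348. SEMA3C and NTN4 were at 64.7 ± 3.68 and 96.4 ± 9.98 TPM and at 14.3 ± 2.14 and 12.8 ± 0.425 TPM. Both were called higher in the resting papilla than in near resting pulp in experiment 2. NTN4 was also called lower in pulp than in papilla and sheath in experiment 1. Late growth pulp of experiment 2 held still more NTN4, at 19.4 and 19.1 TPM. Smooth muscle marker sums were 23023 to 24531 TPM in the growing papilla and 130 to 134 in the resting apical papilla. In the same order, mesenchymal sums were 15266 to 17725 and 6415 to 7223 TPM. Keratinocyte sums overlapped, at 203 to 371 and 239 to 360 TPM. The part of cell composition in these differences was not tested.

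Early growth pulp was sequenced in both experiments, as peripheral and central parts in the first and without such a division in the labels in the second. DRAXIN was at 737 ± 109 and 432 ± 65.6 TPM in peripheral and central pulp and 712 ± 5.08 in the early growth pulp of experiment 2. In the same order, ISLR2 was at 604 ± 43.7, 455 ± 94.7 and 630.3 ± 56.1 TPM. SEMA3E was at 1.33 ± 1.13 TPM in peripheral pulp, was listed at 0 in all 3 central pulp libraries and was at 16.5 ± 2.51 TPM in the early growth pulp of experiment 2.

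In the RefSeq annotation of the GRCg7b assembly, SEMA3D, SEMA3A and SEMA3E are consecutive protein-coding genes. Their levels did not follow one pattern: SEMA3D and SEMA3E were at 97.4 ± 14.6 and 16.8 ± 1.88 TPM in the sheath, where both were highest in experiment 1, whereas SEMA3A was highest in peripheral pulp, at 49.3 ± 17.3 TPM.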
